A study of Mus musculus with 8 samples.

Results

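Transcript levels of the cytosolic ribosomal protein genes were measured in cortex and hippocampus. The mice expressed either a fusion of green fluorescent protein with 100 repeats of glycine and arginine (GFP-GR100) or the fluorescent protein alone (GFP). Poly(GR), the repeat part, is a dipeptide repeat protein made from the expanded C9orf72 repeat, and the title of the series concerns its effect on protein translation. Both groups were 1.5 months old and held 4 animals, of which replicates 1 and 2 were female and replicates 3 and 4 male, with 1 library per animal. Both constructs were made in an adeno-associated virus vector plasmid, so the controls expressed GFP too. The promoter, the route of delivery and the share of cells that carried a construct are not stated in the labels.

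The genes were taken by name, as Rpl or Rps followed by a number, together with Rplp0, Rplp1, Rplp2 and Rpsa. Kinase genes (Rps6k), pseudogenes ending in -ps and rows under 1000 summed counts were left out. This gave 86 of the 43346 listed genes, and all 86 were among the 20987 genes tested. Of these, 50 were large subunit genes, 35 were small subunit genes, and 1, Rps19bp1, is named after a protein that binds Rps19 and is given apart. The set covers 77 genes of the usual ribosome, 5 paralogs (Rpl7l1, Rpl22l1, Rpl36al, Rps27l and Rps4l) and 3 retrocopies (Rpl37rt, Rps27rt and Rps3a2). No protein-coding transcript was listed in GENCODE M21 for Rps4l, Rpl37rt or Rps3a2, the last of which is a processed pseudogene there. They were kept in the subunit counts by name. Another 6 genes fell under 1000 summed counts, namely Rpl3l with 236, Rps3a3 with 123, Rpl39l with 58, Rps12l2 with 8, Rps12l1 with 3 and Rpl10l with 1. The lowest member was Rps27l with 5963 summed counts, so no member lay near that limit.

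Ribosomal proteins assemble with ribosomal RNA into a large subunit, which joins amino acids, and a small subunit, which reads the messenger RNA. Their messages commonly begin with a run of pyrimidines, the terminal oligopyrimidine (TOP) tract, through which mTOR and the RNA-binding protein Larp1 set how much they are translated. Ribosomal proteins are needed in fixed proportion to each other, and free Rpl5 and Rpl11 can bind Mdm2, the ubiquitin ligase of p53. Arginine-rich dipeptides are known to bind ribosomes and ribosomal proteins. RNA levels, as measured here, say nothing of the amount of protein or of its translation.

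The start of the transcript is shown for 8 members, since the pyrimidine run there is the sequence by which these messages are usually recognised. Each line gives 10 bases before and 20 bases from the transcript start in RefSeq on GRCm38.p6, the same build as mm10, 5′ to 3′. Capitals mark a C followed by at least 5 pyrimidines, and a run may go on past the printed end. Rpl35 had the longest run of these, 18 bases. Rps27rt is a retrocopy of Rps27 on another chromosome, and Rpl7l1 and Rps19bp1 are shown because they held no run. Some genes of the usual ribosome, such as Rpl10, Rplp0 and Rps3, also held no run near the start and are not shown.
Rpl35, chr2:39005112-39005141, minus strand: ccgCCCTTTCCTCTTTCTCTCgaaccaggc
Rpl15, chr14:18270967-18270996, minus strand: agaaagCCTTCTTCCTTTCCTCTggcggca
Rps6, chr4:86857348-86857377, minus strand: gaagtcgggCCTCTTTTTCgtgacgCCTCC
Rplp2, chr7:141447641-141447670, plus strand: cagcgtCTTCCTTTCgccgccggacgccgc
Rps27, chr3:90213629-90213658, minus strand: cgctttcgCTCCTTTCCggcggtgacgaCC
Rps27rt, chr9:114982720-114982749, minus strand: ttatcccttgCTTTCCggcggtgacgaCCT
Rpl7l1, chr17:46782637-46782666, minus strand: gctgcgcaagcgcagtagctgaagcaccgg
Rps19bp1, chr15:80264287-80264316, minus strand: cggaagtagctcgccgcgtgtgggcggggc

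A RefSeq start was found for 64 of the 86 members. A run of this kind lay within 20 bases of the start, on the strand of the gene, in 41 of the 64 (64.1%), against 34.2% of 27025 genes with such a window. On the other strand the run was found in 18.8% of the members and 38.1% of all genes. The stretch CTTTCC was present in 17.2% of the members and 2.66% of all genes on the gene's strand, and CTCTTTC in 10.9% and 0.755%, and some of these lie inside the longer runs. On the other strand CTTTCC was found in 1.56% of the members and 2.43% of all genes, and CTCTTTC in 1.56% and 0.685%.

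Total counts ran from 65880460 to 89113010 per library. The members took between 0.747% and 1.27% of a library's counts, and a single member had between 518 and 48955 counts in a library, so counting error was small beside the spread between animals. The labelled sex was matched by Xist, the transcript of the inactive X chromosome, and the Y-linked Ddx3y in all 8 libraries. Markers of the labelled tissue were present, with summed levels of the 7 cortex and hippocampus markers between 312 and 478 CPM (counts scaled to library size) and of the 8 neuron markers between 5218 and 6765 CPM. Across all genes 528 passed edgeR's quasi-likelihood test between the groups, 460 higher and 68 lower in GFP-GR100. Loci that carry ribosomal RNA sequence (Yam1, AY036118 and Lars2) held 11.4% (GFP 1) and 6.74% (GFP 2) of counts among female controls, against 3.20% and 2.76% in the females with GFP-GR100. Among males the order was the other way, with 3.80% and 3.54% for controls and 8.77% and 9.83% for GFP-GR100.

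Per length, the members spanned a wide range of levels. The median of the 86 members was 64.5 RPKM (reads scaled to library size and gene length) in GFP and 66.7 RPKM in GFP-GR100. Rplp1, an acidic protein of the stalk that recruits elongation factors, had the highest level, 667 ± 184 RPKM in GFP and 698 ± 116 RPKM in GFP-GR100 (SD, n = 4 each). Rps15, a protein of the small subunit head, followed with 401 ± 101 and 384 ± 62.2 RPKM, and Rpl4, a large subunit protein that lines the exit tunnel, with 310 ± 56.4 and 311 ± 25.9 RPKM. The SDs of Rps15 and Rpl4 overlapped in both groups. The lowest were Rps27l, the paralog of Rps27, with 11.9 ± 2.64 and 11.5 ± 1.55 RPKM, Rps4l with 15.8 ± 6.75 and 15.8 ± 3.08 RPKM, and Rpl7l1 with 16.6 ± 2.19 and 15.3 ± 0.855 RPKM. The order of the members was nearly the same in both groups, with a Spearman coefficient of 0.999 over 86 genes, which share libraries and listed lengths. The median RPKM in GFP was 52.9 for the large subunit and 84.7 for the small subunit genes. This gap goes with the listed length by which the authors divided, with medians of 1657 and 977 bases, while the mean log2 CPM was 6.53 and 6.49. The listed length was 1439 bases in the median member, against a median of 713 bases for the members' transcripts in GENCODE M21, and it was the longer one for 70 members and the shorter for 14. Levels per length therefore depend on which length is used. Per kilobase of the median M21 transcript the subunits had medians of 127 and 144 CPM in GFP.

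**Figure D1:**
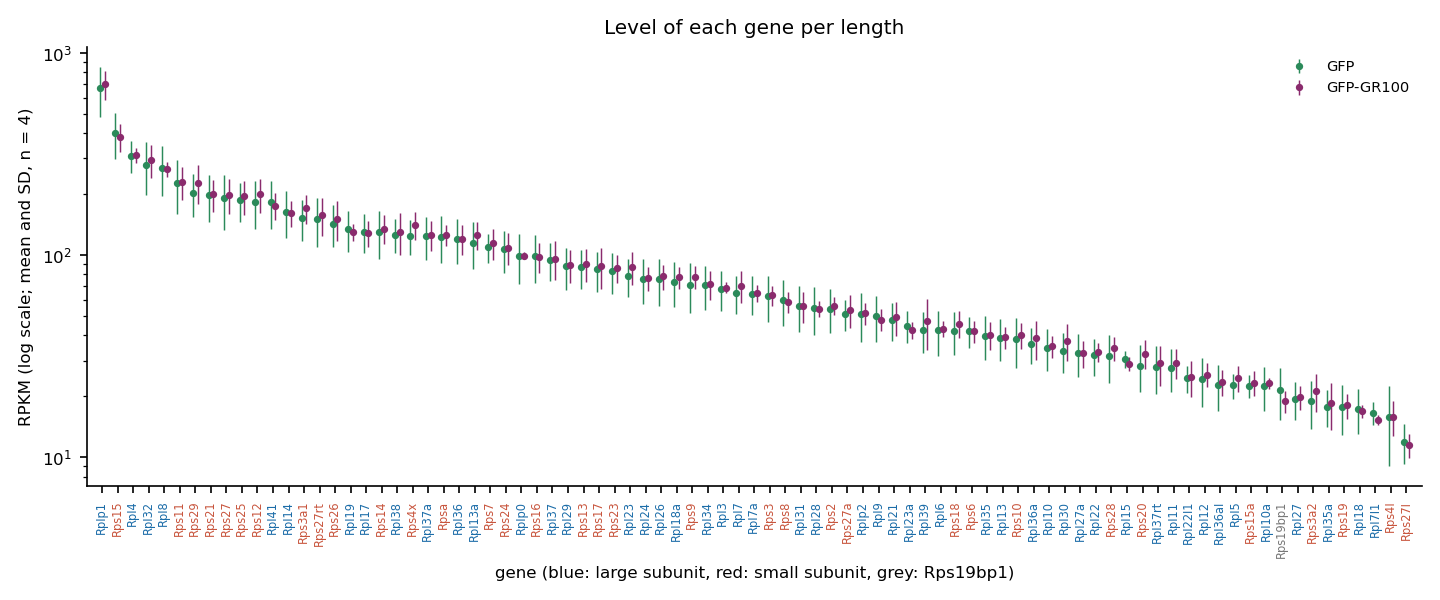
Level per length (RPKM, log axis) of 85 of the 86 genes in GFP and GFP-GR100, as mean and SD of 4 libraries, ordered by the GFP mean. The order runs from Rplp1 at 667 RPKM to Rps27l at 11.9 RPKM in GFP, and the group means of each gene lie within the SD bars of each other for most genes.

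None of the ribosomal protein genes passed the test between GFP-GR100 and GFP. Of the 86 members 0 passed edgeR's quasi-likelihood test at an adjusted p under 0.05 in either direction, where 2.52% of all tested genes passed (2.19% upward and 0.324% downward). The count at an unadjusted p under 0.05 was also 0 of 86, against 15.6% of all tested genes. A member's values had a median Pearson coefficient of 0.97 with the mean of the other members. Counts over the 86 are therefore not 86 separate outcomes. DESeq2, limma-voom and limma-trend on RPKM also called 0 members, and 0 had an unadjusted p under 0.05 with any of these. In 0 of 86 members were the libraries of the groups apart, where all GFP-GR100 libraries lay above all GFP libraries for 5.03% of tested genes and below them for 3.03%. The log2 fold changes ran from -0.21 (Rps19bp1) to 0.14 (Rps20), with a median of -0.02 over the 86 members and of -0.02 over all tested genes. Other genes averaging 10 CPM or more with M21 transcripts of similar length had lower medians. At up to 500 bases the medians were -0.00 for members and -0.07 for others. At 501 to 1000 bases they were -0.03 and -0.08, and at 1001 to 1500 bases -0.02 and -0.08. This gap was not tested. The 95% intervals reached 0.21 to either side of the value on the log2 scale in the median member and held 0 for all 86 members. Their farthest bounds were -0.47 (Rps19bp1) and 0.37 (Rps20), so a change larger than 1.39-fold was outside the interval of every member. In bulk tissue, fewer cells of a type and less RNA per cell cannot be told apart. The labelled brain weights were 111.4 to 126.6 mg in GFP and 71.9 to 85.1 mg in GFP-GR100, while levels here are relative to each library. The part of weight in these values was not tested.

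**Figure D2:**
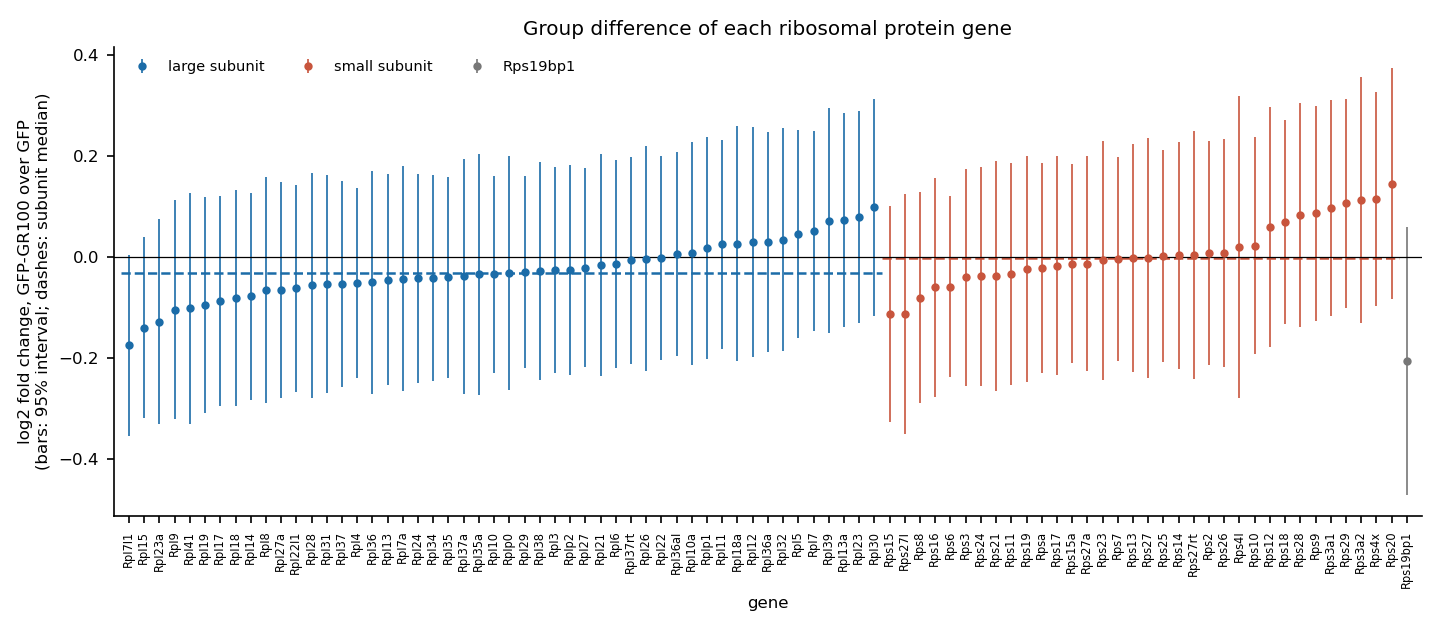
Group difference (log2, GFP-GR100 over GFP) for 85 of the 86 genes, with its 95% interval, ordered within the large subunit, the small subunit and Rps19bp1. Dashed lines are the medians of -0.03 and -0.00 over all genes of a subunit, and all intervals drawn hold 0.

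The GFP-GR100 group lay lower at the smallest p for Rpl7l1, Rpl15, Rps19bp1, Rpl23a and Rps15. Rpl7l1 (ENSMUSG00000063888, chr17:46773907-46782656 on mm10) is a paralog of Rpl7, a large subunit protein. Its levels in replicates 1 to 4 were 40.7, 40.6, 49.8 and 45.1 CPM with GFP, against 39.5, 36.3, 42.5 and 37.4 CPM with GFP-GR100, and other genes are given in the same order. The highest GFP-GR100 library lay above the lowest GFP libraries, so the groups overlapped. The log2 fold change was -0.17 ± 0.08 (SE) with an adjusted p of 0.331 in edgeR's quasi-likelihood test, and its unadjusted p was the smallest of any member. Rpl15, a large subunit protein that contacts the ribosomal RNA core, measured 75.3, 67.1, 79.4 and 77.8 CPM in GFP and 67.4, 60.0, 76.6 and 68.2 CPM in GFP-GR100, a log2 fold change of -0.14 ± 0.08 (adjusted p = 0.427, edgeR). Rps19bp1, also known as a regulator of the deacetylase Sirt1, measured 13.9, 14.4, 22.9 and 21.1 CPM in GFP and 15.8, 13.3, 18.0 and 14.2 CPM in GFP-GR100. Its value of -0.21 ± 0.12 was the lowest of the set and rested on the males, as the females of both groups lay between 13.3 and 15.8 CPM. Rpl23a, at the exit of the tunnel through which new proteins leave, had a log2 fold change of -0.13 ± 0.09, and Rps15 had -0.11 ± 0.10.

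On the other side stood Rps20, Rps4x, Rps29, Rps3a2 and Rpl30. Rps20 (ENSMUSG00000028234, chr4:3831334-3835665), a protein of the small subunit head, measured 95.5, 104, 156 and 114 CPM in GFP and 110, 113, 161 and 135 CPM in GFP-GR100. Each GFP-GR100 library was above at least 1 GFP library, and the male GFP 3 was above 3 of the GFP-GR100 libraries. The log2 fold change was 0.14 ± 0.11 with an adjusted p of 0.517 in edgeR's quasi-likelihood test. Rps4x, the X-linked form of Rps4 and a core protein of the small subunit, measured 180, 193, 258 and 198 CPM in GFP and 197, 187, 271 and 246 CPM in GFP-GR100, a log2 fold change of 0.11 ± 0.10. Rps29, a small zinc-binding protein, had 0.11 ± 0.10. Rps3a2, a retrocopy of Rps3a1, had 0.11 ± 0.11. Rpl30, a large subunit protein, had 0.10 ± 0.10. In each of these 10 genes the libraries of the groups overlapped.

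The members known for a role of their own were read next, and none passed the test. Of the stalk proteins, Rplp0, the stalk base, measured 132, 143, 223 and 172 CPM in GFP and 155, 152, 173 and 165 CPM in GFP-GR100, a log2 fold change of -0.03 ± 0.11. Rplp1 and Rplp2, which bind to it in pairs, had 0.02 ± 0.10 and -0.03 ± 0.10. Rps6, the substrate of the S6 kinases downstream of mTOR, measured 59.7, 62.1, 81.0 and 68.0 CPM in GFP and 58.3, 56.3, 76.1 and 69.8 CPM in GFP-GR100, with -0.06 ± 0.08. The Mdm2 binders Rpl5 and Rpl11 had 0.05 ± 0.09 and 0.02 ± 0.10. Rps25, used in initiation at some internal ribosome entry sites and in repeat-associated translation, had 0.00 ± 0.10, and Rpl38, needed for the translation of certain Hox messages, had -0.03 ± 0.10. Rpsa, the small subunit protein also known as the laminin receptor, had -0.02 ± 0.10. The X-linked Rpl10, Rpl39 and Rpl36a had -0.03 ± 0.09, 0.07 ± 0.10 and 0.03 ± 0.10. The libraries of the groups overlapped for each of these genes.

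The large and small subunits were compared next. The median log2 fold change was -0.03 over the 50 large subunit genes, of which 14 lay above 0 and 36 below, and -0.00 over the 35 small subunit genes, of which 17 lay above 0 and 18 below. Within a library, the mean log2 CPM of the large subunit genes minus that of the small subunit genes was 0.05, 0.04, -0.00 and 0.05 for the GFP replicates, against 0.04, 0.01, -0.04 and -0.02 for the GFP-GR100 replicates. The mean was 0.04 ± 0.03 in GFP and -0.00 ± 0.03 in GFP-GR100 (SD, n = 4 each), a difference of -0.04. GFP 3 lay below 2 of the GFP-GR100 libraries, so the groups overlapped, and the difference between the groups was about the size of the spread within them. No test was made of this summary over chosen genes. The summed level was 5735 ± 1150 CPM in GFP and 5638 ± 869 CPM in GFP-GR100 for the large subunit, and 3981 ± 835 and 4002 ± 700 CPM for the small subunit. Without GFP 3 the subunit medians became 0.07 and 0.10, and without GFP 4 they became -0.06 and -0.05. Without both GFP 3 and GFP-GR100 4 they became 0.09 and 0.14 and 13 members had an unadjusted p under 0.05, with 0 called. The share of all genes at that p was not taken for this fit, and was 15.6% in the main fit.

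**Figure D3:**
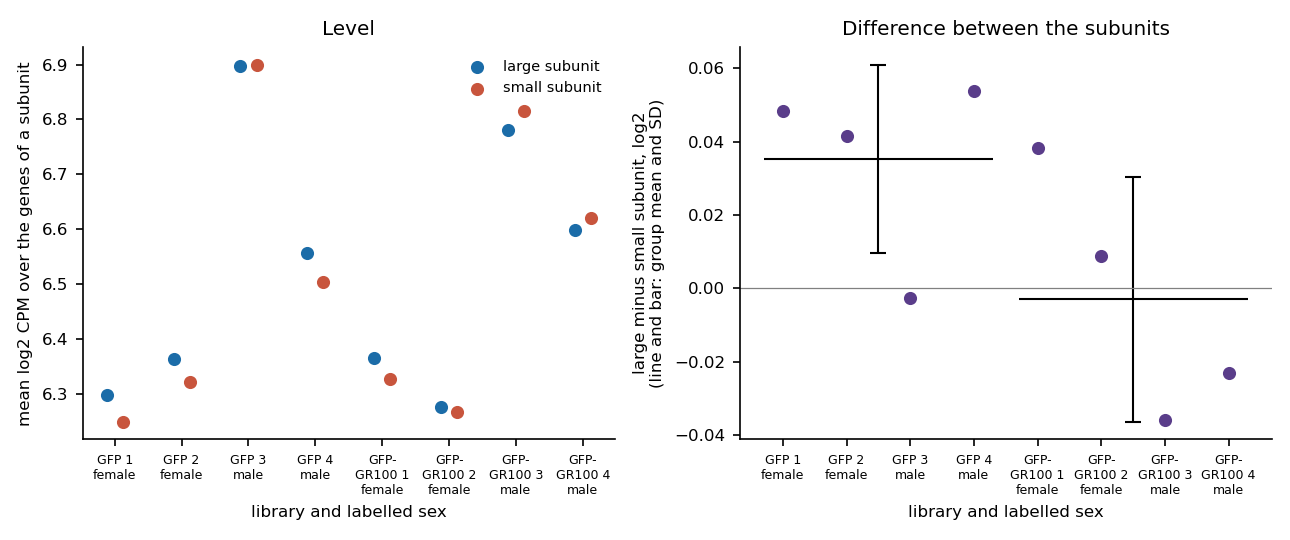
Left, mean log2 CPM over the large and the small subunit genes in each of the 8 libraries, and right, the large minus the small subunit value, with the group mean and SD. The 4 male libraries are the highest on the left, and on the right the groups overlap around means of 0.04 and -0.00.

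The ratio between paralogs overlapped between the groups for all 5 pairs. Other lengths multiply a ratio by the same factor in every library, so they cannot change this overlap. Rps27l was present at 6.69, 6.56, 5.68 and 6.40% of the RPKM of Rps27 across the GFP replicates, against 6.25, 5.98, 5.38 and 5.75% with GFP-GR100, so the groups overlapped. Rpl7l1 was present at 27.1, 27.0, 23.0 and 26.3% of Rpl7 in GFP and at 26.1, 24.6, 19.4 and 18.8% in GFP-GR100. The 2 lowest of these 8 ratios belonged to the GFP-GR100 males, and the GFP-GR100 females lay within the GFP range. Rpl22l1, a paralog that shares RNA targets with Rpl22, stood at 77.7 ± 5.29% of Rpl22 in GFP and 74.6 ± 8.53% in GFP-GR100. Rpl36al stood at 62.4 ± 3.61% and 61.6 ± 4.55% of Rpl36a, and Rps4l at 12.4 ± 3.59% and 11.2 ± 1.01% of Rps4x. The retrocopy Rps27rt was listed at 79.5 ± 3.42% of Rps27 in GFP and 79.6 ± 1.56% in GFP-GR100, but 91.1% of the 50-base stretches of its transcript also occur in Rps27. Rps3a2 was listed at 12.3 ± 0.528% and 12.4 ± 0.706% of Rps3a1, with 76.7% of its stretches in that gene, and Rpl37rt at 29.3 ± 2.06% and 30.2 ± 0.992% of Rpl37, with 38.7%. The size of a ratio depends on the lengths used. On M21 transcript lengths Rpl22l1 stood at 202 ± 13.7% of Rpl22 in GFP, Rps27l at 16.1 ± 1.15% and Rps27rt at 123 ± 5.28% of Rps27, Rpl36al at 32.6 ± 1.88% of Rpl36a and Rpl37rt at 47.1 ± 3.32% of Rpl37, and Rpl22l1 and Rps27rt were thus above their partners. The counts of the retrocopies are uncertain, since reads could be placed on either gene.

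Sequence shared with other genes touched most of the set. In the median member 42.1% of the 50-base stretches of its longest matched transcript also occurred in a transcript of another gene and the share ran from 0 to 91.1%. The 31 members above 50% had a median group difference of -0.00 and the 55 others one of -0.03. The 252 named pseudogene rows, which are not members, had summed counts equal to between 2.96% and 3.19% of the members' counts. Members with a pyrimidine run within 20 bases of the start had a median group difference of -0.03 (41 genes) and those without one -0.02 (23 genes). As 34.2% of all genes held such a run, this split does not separate TOP messages from others.

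Members rose and fell together across animals. The SD of a member's log2 CPM over the 8 libraries was 0.25 in the median, and after the mean of all members was taken off each library it was 0.07. A member's values had a median Pearson coefficient of 0.97 with the mean of the other members, and 79 of 86 were above 0.9, over 8 libraries that share depth and scaling. The remaining SD was largest for Rps4l at 0.25, Rps19bp1 at 0.19, Rpl15 and Rpl7l1 at 0.18 each and Rpl39 at 0.13. The Pearson coefficient was lowest for Rpl15 at 0.66, Rpl7l1 at 0.69, Rps19bp1 at 0.77 and Rpl23a and Rps4l at 0.88 each, while Rpl39 had 0.94. In the plot of subunit levels the 4 male libraries were above the 4 female libraries for both subunits.

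Most members were called higher in males than in females over both groups together. This comparison came from the sex term of the same edgeR fit and was chosen after the values were seen. The males of each group were 2 animals, and the sexes are spread evenly over the groups. Of the 86 members 55 passed the quasi-likelihood test as higher in males and 0 as lower, where 1.84% of all tested genes were higher and 2.34% lower. All 86 fold changes were above 0, from 0.15 (Rpl7l1) to 0.73 (Rps4l) with a median of 0.41, against a median of 0.02 over all tested genes. At an unadjusted p under 0.05 the count was 84 of 86, against 25.2% of all tested genes in either direction. Since the members varied together, such counts are not 86 separate outcomes. For 79 members all 4 male libraries lay above all 4 female libraries, as they did for 7.55% of tested genes. The 7 exceptions were Rpl5, Rpl7a, Rpl7l1, Rpl15, Rpl23a, Rpl37a and Rps19bp1. By subunit, 29 of 50 large and 26 of 35 small subunit genes were called, with medians of 0.40 and 0.42.

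The adjusted p of the 55 called members lay between 0.0405 and the threshold of 0.05, and 13 of the 31 others lay between 0.0505 and 0.06, so the count moves with small changes in the fit. It was 0 in the fits without GFP 1, GFP 2, GFP 3, GFP-GR100 2 or GFP-GR100 3, 1 without GFP-GR100 1, 68 without GFP 4 and 77 without GFP-GR100 4. It was also 0 with limma-trend on RPKM. Over all genes the sex calls in either direction numbered 877 in the main fit and 14 to 1892 with 1 library left out. The members' median stayed between 0.33 and 0.48 in these 8 fits with 1 library left out, and all 86 members remained above 0 in each.

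**Figure D4:**
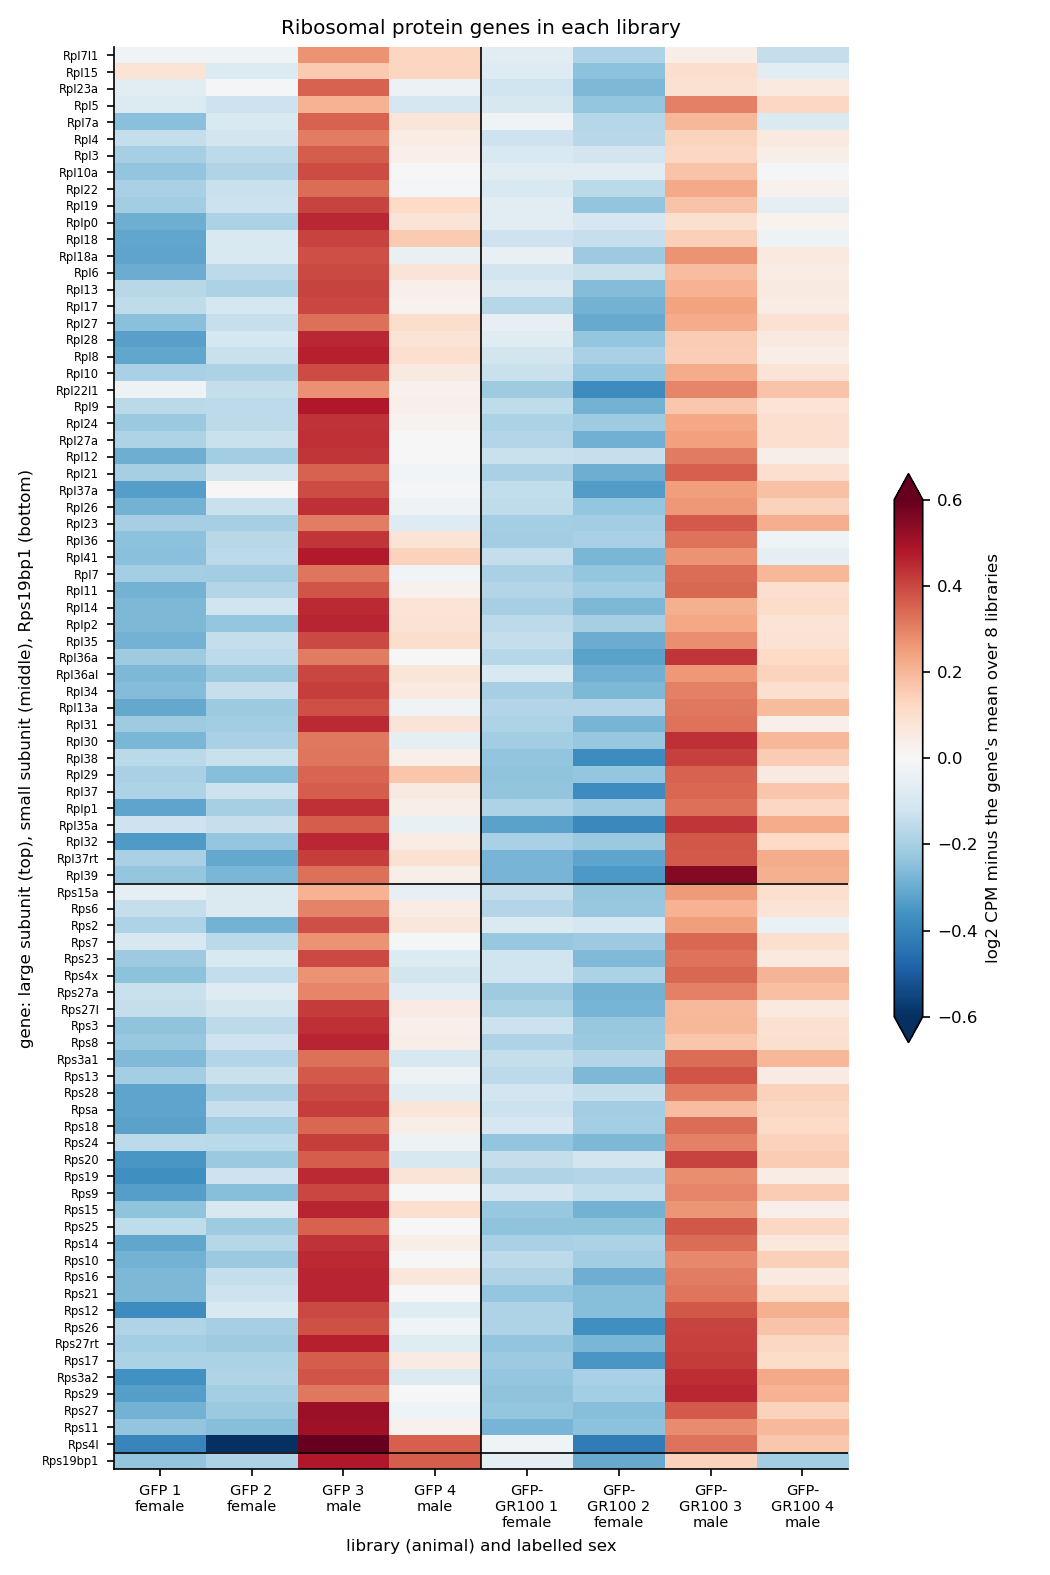
Log2 CPM of 85 of the 86 genes in each library, minus the gene's mean over the 8 libraries, with the large subunit above, the small subunit below it and Rps19bp1 last. The columns of GFP 3 and GFP-GR100 3, both males, are the reddest, GFP 4 and GFP-GR100 4 are nearer to 0, and the 4 female columns are blue for nearly all genes.

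Single genes show the shape of this difference. Rpl39, X-linked and a lining protein of the exit tunnel, measured 53.3, 51.8, 51.5 and 49.3 CPM in the 4 females (GFP 1 and 2, then GFP-GR100 1 and 2) and 78.7, 64.1, 91.5 and 72.6 CPM in the 4 males (GFP 3 and 4, then GFP-GR100 3 and 4). The females lay within a few CPM of each other and every male was above them, with a log2 fold change of 0.57 ± 0.10 (adjusted p = 0.0423, edgeR's quasi-likelihood test). Rps4l, listed on chr6:148354656-148355598, is named after the small subunit protein Rps4 but has no listed protein-coding transcript. It had 10.9, 9.28, 14.0 and 10.7 CPM in females and 21.9, 18.3, 17.9 and 16.0 CPM in males. The log2 fold change was 0.73 ± 0.14 (adjusted p = 0.0423, edgeR). Rplp1 had 267, 289, 292 and 285 CPM in females and 450, 340, 417 and 362 CPM in males, with 0.47 ± 0.10. Rpl15 overlapped between the sexes, with 75.3, 67.1, 67.4 and 60.0 CPM in females and 79.4, 77.8, 76.6 and 68.2 CPM in males, and did not pass at 0.16 ± 0.08 (adjusted p = 0.237, edgeR).

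The males were not alike. GFP 3 was the highest library for 63 members and GFP-GR100 3 for 23, and these were the 2 highest libraries for 81 members. The lowest library was GFP-GR100 2 for 43 members, GFP 1 for 38, GFP 2 for 3 and GFP-GR100 1 for 2. The mean log2 CPM of the large subunit genes was 6.30 and 6.36 for female controls and 6.36 and 6.28 for females with GFP-GR100, against 6.90 and 6.56 for male controls and 6.78 and 6.60 for males with GFP-GR100. The share of counts at ribosomal RNA loci did not follow this order, being high in female controls and in males with GFP-GR100.

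Transcript length moved with sex across the transcriptome. Among genes outside the set that averaged 10 CPM or more, the median log2 difference of males over females was 0.14 for 228 genes with a median annotated transcript of up to 500 bases, 0.15 for 1670 genes of 501 to 1000 bases and 0.15 for 1324 genes of 1001 to 1500 bases. It was 0.08 for 1318 genes up to 2000 bases, -0.00 for 2363 genes up to 3000, -0.11 for 2600 genes up to 5000 and -0.27 for 1178 longer genes. The members at these lengths had medians of 0.46 (15 genes of up to 500 bases), 0.40 (55 genes of 501 to 1000 bases) and 0.40 (11 genes of 1001 to 1500 bases). Thus the members lay above other genes of their length class in each of these 3 classes. With the trend on transcript length removed from each library the members' median was 0.28 with 0 called by limma-trend, and with the trend on listed gene length 0.28 with 0 called. Limma-trend on RPKM, with no trend removed, also called 0. These counts therefore cannot be set against the count from edgeR. How much of the sex difference goes with transcript length beyond these values was not tested.

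**Figure D5:**
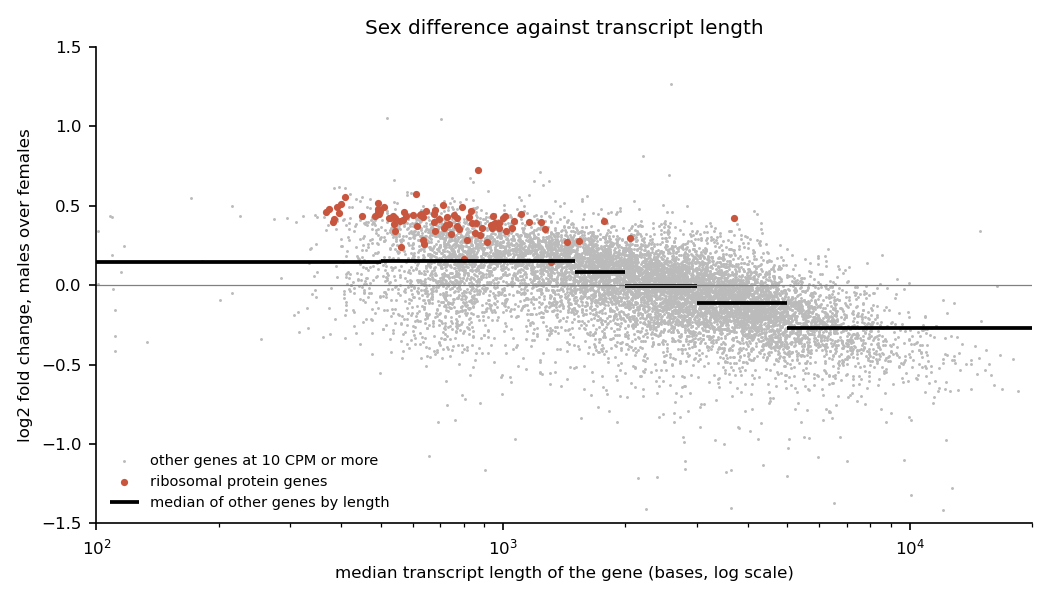
Log2 fold change of males over females against the median annotated transcript length of each gene (log axis), for genes with a mean of at least 10 CPM. Grey points are other genes, with black lines for their median in each length class, and red points are the ribosomal protein genes, most of which lie above those lines; genes beyond 1.5 on the vertical axis are not drawn.

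Other gene families were read in the same comparison, in which 1.84% of all tested genes were called higher in males. The 77 mitochondrial ribosomal protein genes had a median of 0.29 with 18 called higher, the 44 complex I subunit genes 0.34 with 19 called higher, and the 37 proteasome subunit genes 0.18 with 0 called. Members whose transcripts were mostly shared with other genes had a median of 0.39, and the others 0.42. Members with a pyrimidine run within 20 bases of the start had 0.42 and those without one 0.40. The summed level of the 6 oligodendrocyte markers was 5063 to 6432 CPM in females and 5553 to 8029 CPM in males, and that of the 8 neuron markers 6143 to 6548 and 5218 to 6765 CPM. The part of cell composition in the sex difference was not tested.

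The group difference was also compared between the sexes. Of the 86 members 0 passed the test of the product of sex and group, as did 0.0524% of all tested genes, and 2 members had an unadjusted p under 0.05, against 16.4% of all tested genes. The 3 smallest p-values were those of Rps4l, Rps19bp1 and Rplp0. Rps4l had a group difference of 0.30 in females and -0.25 in males (adjusted p = 0.25, edgeR's quasi-likelihood test), Rps19bp1 of 0.04 and -0.44 (adjusted p = 0.255, edgeR) and Rplp0 of 0.16 and -0.22 (adjusted p = 0.305, edgeR). The median group difference of the members was 0.00 in females, with 43 of 86 above 0, and -0.04 in males, with 34 of 86 above 0. The share at ribosomal RNA loci moved the opposite way in the sexes, being lower in GFP-GR100 females and higher in GFP-GR100 males than in their controls, and its part in these values was not tested.

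The genes around the ribosomal proteins were followed by lists. Fau, which encodes the small subunit protein eS30 fused to a ubiquitin-like domain, had a group difference of 0.04 ± 0.11, and Gnb2l1, the small subunit scaffold Rack1, had -0.01 ± 0.10, and neither passed. Fau was called higher in males, by 0.47 ± 0.11 (adjusted p = 0.0458) in edgeR's quasi-likelihood test, within the range of the members. Of 20 other messages of the TOP type, translation factors and hosts of small nucleolar RNAs, 0 passed between the groups, with a median of -0.04. Snhg12 and Gas5, both hosts of small nucleolar RNAs, had the smallest p, at 0.30 ± 0.11 (adjusted p = 0.213, edgeR) and 0.24 ± 0.11 (adjusted p = 0.299, edgeR). Between the sexes 3 of these 20 were called higher in males, against 1.84% of all tested genes, namely Tpt1 (0.48), a translationally controlled tumour protein, Naca (0.35), part of the complex that shields new chains, and Snhg1 (0.50). The elongation factor genes Eef1a1 and Eef2 had sex differences of 0.24 ± 0.09 and -0.02 ± 0.10, neither of which passed.

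In the lists that follow, the shares over all tested genes were 2.52% called between the groups and 54.6% below 0, with a median of -0.02. Genes outside the ribosomal set that averaged at least 10 CPM had lower group medians. These ran from -0.11 at listed lengths of 1001 to 1500 bases to -0.03 at 5001 bases or more. At 3001 to 5000 bases the median was -0.07. Among 17 genes that regulate TOP messages, in the mTOR pathway and its targets, 0 passed between the groups. Tia1, an RNA-binding protein of stress granules, had the smallest p, at 0.32 ± 0.14 (adjusted p = 0.29, edgeR). Rheb, the GTPase that switches on mTOR complex 1, had -0.20 ± 0.09, Larp1 -0.04 ± 0.08, Mtor 0.05 ± 0.09 and Rps6kb1, the main S6 kinase, 0.07 ± 0.09. Between the sexes 2 of the 17 were called lower in males, where 2.34% of all tested genes were. They were Mtor at -0.38 ± 0.09 (adjusted p = 0.0472, edgeR) and Eif4ebp2 at -0.56 ± 0.10 (adjusted p = 0.0423, edgeR). Eif4ebp2 is a repressor of cap-dependent translation that mTOR phosphorylates. Both adjusted p-values lay near the threshold of 0.05. The median listed length of the 17 genes was 6018 bases. Genes outside the ribosomal set with listed lengths of 5001 bases or more, averaging at least 10 CPM, had a median sex difference of -0.17. The part of length in the calls of Mtor and Eif4ebp2 was not tested. Of 17 chaperones and importers of ribosomal proteins 0 passed, with 15 below 0 and a median of -0.12. Ipo7, an importin that carries ribosomal proteins to the nucleus, had -0.36 ± 0.11 (adjusted p = 0.149, edgeR), and Ltv1, which helps the small subunit mature, -0.24 ± 0.11 (adjusted p = 0.306, edgeR).

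Of 10 genes of Mdm2 and the p53 response 0 passed. Cdkn1a, the p53 target that stops the cell cycle, had -0.68 ± 0.18 (adjusted p = 0.0976, edgeR). Zmat3, an RNA-binding protein that p53 induces, was called lower in males at -0.34 ± 0.09 (adjusted p = 0.0484, edgeR). Of 22 genes for stalled ribosomes and quality control 0 passed, with a median of -0.12, and Abce1, which recycles ribosomes, had -0.23 ± 0.09 (adjusted p = 0.244, edgeR). Of 22 genes of RNA polymerase I and ribosomal RNA maturation 0 passed, with a median of -0.09, and Pes1, a factor of large subunit assembly, had -0.20 ± 0.08 (adjusted p = 0.233, edgeR). The medians of the mitochondrial ribosomal protein genes (-0.14), complex I subunits (-0.14) and proteasome subunits (-0.15) lay lower than the -0.02 of the cytosolic ribosomal proteins, and 0 genes of each of these families were called between the groups. The difference between these families was not tested.

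Markers of other cells did move with the group, where 2.19% of all tested genes were called higher and 0.324% lower. The 8 microglia markers summed to 393 to 572 CPM in GFP and 697 to 786 CPM in GFP-GR100, with 6 of 8 called higher and none at 0. The 10 interferon-stimulated genes summed to 65.9 to 109 and 469 to 613 CPM, with 10 of 10 called higher. The 6 choroid plexus markers summed to 322 to 636 and 198 to 276 CPM, with 2 of 6 called lower. Of the astrocyte, oligodendrocyte, endothelial and neuron markers 0 were called. All 6 oligodendrocyte and all 8 neuron markers lay below 0, with medians of -0.28 and -0.12, where 54.6% of all tested genes did. Of the 6 astrocyte markers 5 lay above 0, with a median of 0.08, and of the 5 endothelial markers 2 did. The part of these shifts in the ribosomal protein values was not tested.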

How the data were processed

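The authors' deposited table gives whole-number counts per gene and, per the file headers, RPKM for 8 libraries from a stranded total RNA kit. Per the submitters' processing notes, TopHat2 version 2.1.0 and mm10 were used, and CASAVA, DESeq2 and R version 3.4.1 are also named. Which counter and annotation were used, and whether strand was, is not given in the sources used here. Deposited RPKM values returned each library's summed counts with ratios of 1.00, so they were scaled to those sums.

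Here counts were kept by filterByExpr (minimum count 10, minimum total 15), scaled by TMM and tested with edgeR version 4.0.16 (robust quasi-likelihood, sex and group in the model) in R version 4.3.3, with Benjamini-Hochberg adjustment over 20987 genes and a threshold of 0.05. CPM values are TMM-scaled, and SE and 95% intervals come from this fit. All library pairs within a group differed beyond sampling noise (lowest chi-square per degree of freedom 16.6). A count of 3 equals 0.0337 to 0.0455 CPM, which covers counting error only. Each library is 1 animal, and replicate numbers follow accession order and pair none.

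The members and lists were chosen with earlier results of these data known. Named genes were the 5 members of smallest p in each direction, the 3 highest and 3 lowest by RPKM, paralog pairs, members of known role, the 3 of smallest interaction p, and in each list the called genes or the one of smallest p. Other list genes, the members of the sex comparison and the retrocopies were named after their values were seen. Alternatives used DESeq2 version 1.42.0 and limma version 3.58.1 (voom, and limma-trend on log2(RPKM + 0.1) or log2(RPKM + 1)), other scalings and filters, no sex covariate, the ribosomal RNA share as a covariate, each library left out, and GFP 3 with GFP-GR100 4 left out. The sex comparison and the length corrections (lowess with span 0.3, transcript lengths from GENCODE M21 for 98.7% of tested genes) were chosen after seeing the data. The tests were also run on simulated counts, with genes drawn independently and changes larger than the members' group differences. That run therefore says nothing of shifts as small as theirs or shared among genes. Some genes enter the counts and medians but are not reported here by name.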

Additional observations from a re-analysis of the deposited data

Results flagged for a closer look

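In the groups of 4 libraries, a value far from the other 3 was found for 2 of the 66 sets of 4 values examined, which were the named members and the subunit means and difference in each group, where chance flags about 1 in 20. Rpl23a measured 47.0 CPM in GFP 3 against 35.1 to 36.5 CPM in the other GFP libraries. Rpl5 measured 106 CPM in GFP 3 against 84.2 to 86.7 CPM in the other GFP libraries. GFP 3 was the highest GFP library for both.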

How the results depend on the processing

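Of the ribosomal protein genes 0 were called between the groups in all 21 alternatives (lowest adjusted p = 0.114, edgeR's quasi-likelihood test, without GFP 3 and GFP-GR100 4). Among 30 named members, 105 of 630 values changed sign, none of them called, and the large subunit median ran from -0.06 to 0.09, the small from -0.05 to 0.14 and their per-library difference from -0.05 to -0.03. The count over all genes (528) was 1529 with no filter, 924 with DESeq2 and 882 with the ribosomal RNA share as a covariate, and 323 (without GFP-GR100 2) to 591 with 1 library left out. The cause was not tested. The 55 members called higher in males became 80 with the ribosomal RNA share as a covariate, 79 with DESeq2, 76 with no filter, 33 without TMM, 22 without GFP 3 and GFP-GR100 4, 0 with limma-trend on either RPKM scale or after removal of either length trend, and 0 to 77 with 1 library left out, where fewer samples enter the fit. Their median ran from 0.28 to 0.48. Over all genes the sex calls in either direction, 877 in the main fit, ran from 14 to 3021 in these alternatives. The test of sex and group called 0 members in 11 alternatives. No paired analysis was possible because the labels give no shared replicate numbers. In the median member the 95% interval reached 0.21 to either side on the log2 scale, which limits what 4 animals per group can show.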
